A study of Mus musculus with 5 samples.

Results

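The genes described here are the matrix metalloproteinases (MMP genes), the secreted metalloproteinases with thrombospondin motifs (ADAMTS genes) and the tissue inhibitors of metalloproteinases (TIMP genes). They were taken by name from the array design: every gene whose design name is Mmp with a number (and an optional a or b), Adamts with a number, or Timp with a number from 1 to 4. This gave 46 genes on 61 probes, of 36409 genes and unnamed features on 55681 probes. Of the 46, 23 were MMP genes, 19 were ADAMTS genes and 4 were TIMP genes.

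RNA came from cells sorted by flow cytometry from the muscle of mdx mice on the C57BL/6 strain. These animals lack dystrophin through a mutation of its gene, as patients with Duchenne muscular dystrophy do, and no group without the mutation was part of the design. Over 45 days the mice were injected intraperitoneally with vehicle or with 0.6 mg per kg of trichostatin A (TSA), which blocks histone deacetylases. Cells positive for CD34 and α7-integrin were divided by Sca1, a surface protein encoded by Ly6a, into Sca1+ interstitial cells and satellite cells without it (muscle stem cells, MuSC). The 5 one-colour arrays held Sca1+ cells with vehicle (2 arrays), Sca1+ cells with TSA (2 arrays) and MuSC with vehicle (1 array). Slide 1 carried every replicate 1, the MuSC array among them, and slide 2 both replicates 2. Neither the age of the animals nor whether replicates were separate animals is given in the labels, so the spread behind each p-value is that between these samples and may be technical.

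MMPs and ADAMTS enzymes are zinc proteases made as inactive precursors that mostly act outside the cell or at its surface. MMPs cleave collagens, gelatin, elastin, laminin and other proteins of the matrix, while ADAMTS enzymes trim procollagens, cleave large proteoglycans or process other matrix proteins. TIMPs bind the active site of these enzymes and block it. In damaged muscle the balance of these proteases and inhibitors is known to bear on how matrix is laid down and removed around fibres.

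Of the 23 MMP genes, 10 lie next to each other on mouse chromosome 9, in the order Mmp13, Mmp12, Mmp1b, Mmp3, Mmp1a, Mmp10, Mmp8, Mmp27, Mmp20 and Mmp7. On the positions of the array files (mm9), the probes of the first and the last of them span 415 kb. In the RefSeq gene table (GRCm38.p6), 13 genes are annotated from the first to the last of them, and the 10 that code for protein are these 10 MMP genes. A RefSeq promoter sequence was matched for 32 of the 46 members, and its 250 bases before the gene start were searched for TGAGTCA on either strand, the letters known as the AP-1 element of collagenase and stromelysin promoters. The letters were found in 7 members, all of them in the cluster, so that 7 of 10 cluster genes held them in a promoter and 0 of 22 other genes did. Mmp12 and Mmp7 each have another promoter in the table, without the letters and not printed here. Over all mouse genes in the table, 5.16% held them. The letters TATAAA, searched on the gene's strand over the same bases, were found in 9 members, against 8.94% of all genes. A match is a description of the letters and not a bound site. The 7 promoters are printed because they show what members of the cluster share apart from their names. Each line gives the 100 bases before the gene start on the gene's own strand, 5′ to 3′ (RefSeq, GRCm38.p6), with the match in capitals; in Mmp13 the match is on the opposite strand and reads TGACTCA.
Mmp13 (chr9:7272414-7272513, plus strand): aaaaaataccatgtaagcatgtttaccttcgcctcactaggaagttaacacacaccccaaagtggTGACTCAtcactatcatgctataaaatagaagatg
Mmp12 (chr9:7347274-7347373, plus strand): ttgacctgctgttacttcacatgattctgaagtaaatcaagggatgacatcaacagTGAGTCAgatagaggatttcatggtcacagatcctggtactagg
Mmp1b (chr9:7388027-7388126, minus strand): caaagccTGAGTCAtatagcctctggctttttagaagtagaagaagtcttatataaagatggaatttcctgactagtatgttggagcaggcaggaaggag
Mmp3 (chr9:7445722-7445821, plus strand): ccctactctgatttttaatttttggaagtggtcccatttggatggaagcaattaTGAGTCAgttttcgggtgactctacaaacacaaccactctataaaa
Mmp1a (chr9:7464041-7464140, plus strand): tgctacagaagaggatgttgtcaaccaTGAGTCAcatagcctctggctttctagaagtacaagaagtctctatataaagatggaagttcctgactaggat
Mmp10 (chr9:7502242-7502341, plus strand): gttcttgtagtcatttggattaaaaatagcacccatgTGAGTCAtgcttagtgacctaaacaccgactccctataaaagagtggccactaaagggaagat
Mmp7 (chr9:7691990-7692089, plus strand): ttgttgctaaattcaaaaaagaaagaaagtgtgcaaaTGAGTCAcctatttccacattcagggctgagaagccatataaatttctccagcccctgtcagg

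Levels are log2 of the processed signal relative to the 75th percentile of the array's non-control spots, so a level of 0 is the 75th percentile. A gene was tested where some group had its probe well above background on all of that group's arrays. Of the 46 members, 36 passed: 14 MMP, 18 ADAMTS and 4 TIMP genes, 28 of them above background on all 5 arrays. The 10 that did not pass were Adamts13, Mmp1a, Mmp1b, Mmp8, Mmp10, Mmp16, Mmp20, Mmp21, Mmp25 and Mmp28. In the chromosome 9 cluster, both Sca1+ vehicle arrays had Mmp3, Mmp12, Mmp13 and Mmp27 well above background, 4 of the 10 genes. Mmp7, the fifth tested, was above it on 1 of 2 vehicle arrays, both TSA arrays and the MuSC array. Of the 7 promoters printed above, those of Mmp1a, Mmp1b and Mmp10 thus belong to genes that were not tested. An array had 58.5% to 66.9% of its spots well above background, and 0 spots were saturated.

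**Figure D1:**
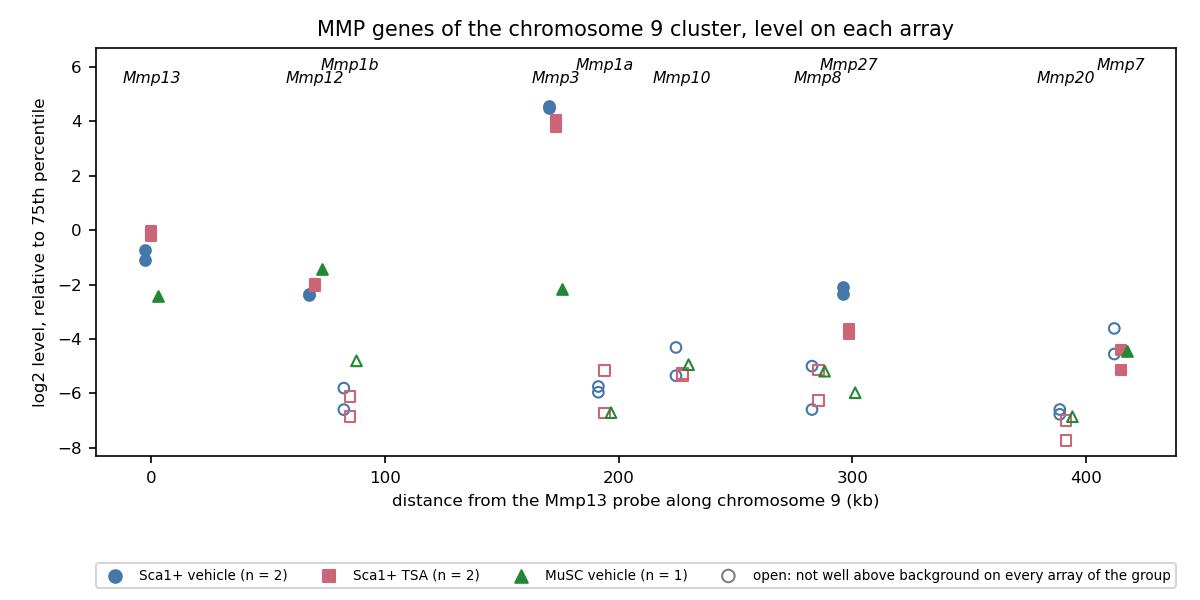
Level on each array (log2, relative to the array's 75th percentile) of the 10 MMP genes of chromosome 9, placed by the distance of their probes from that of Mmp13 in kb, with open symbols where a group was not above background on all its arrays. Within Mmp3 the MuSC array lies at -2.16, below the 4 Sca1+ arrays at 3.81 to 4.56; levels of different genes come from different probes and are not comparable.

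MuSC and Sca1+ cells of vehicle-treated mice were compared first, which asks how the genes differ between both sorted populations. Of the 36 members tested, 15 were lower and 5 higher in MuSC (limma, Benjamini-Hochberg adjusted p under 0.05 over all genes), which is 41.7% and 13.9%. Of these 20, Adamts20 passed the filter through MuSC alone and Mmp19, Mmp27, Adamts3, Adamts16 and Adamts19 through Sca1+ cells alone, so the counts describe the members tested and not all 46. Over all 26087 genes tested, 11.7% were lower and 10.5% higher, 22.2% in all. The median log2 difference of the members was -0.78, and -0.72 with genes below background placed at their bound, against -0.04 for all genes. The MuSC array was below all 4 Sca1+ arrays for 18 members, against 28.5% of all genes, and above all of them for 9, against 33.7%. The MuSC group holds 1 array and is assumed to vary like the Sca1+ arrays. In sorted bulk RNA, fewer cells of a type and less RNA per cell cannot be told apart.

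Among the stromelysins, Mmp3, which cleaves proteoglycans, fibronectin and the precursors of other MMPs, had the largest difference among members measured above background in both groups. Its level was 4.49 and 4.56 in Sca1+ vehicle cells, 3.81 and 4.05 with TSA, and -2.16 in MuSC. All Sca1+ arrays lay far above the MuSC array, on which the probe was still well above background. The difference was -6.69 ± 0.20 (log2, SE; adjusted p = 0.0014), a level 103-fold lower in MuSC. Mmp11, a stromelysin known from stromal cells around tumours, had 2.88 and 2.66 in vehicle cells against 1.92 in MuSC and missed the threshold (-0.85 ± 0.21, adjusted p = 0.054; with the slide as a block it was called lower).

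Mmp2, gelatinase A, cleaves denatured collagen and basement membrane collagen and is activated at the cell surface by Mmp14 together with Timp2. Its level was 6.81 and 6.72 in Sca1+ vehicle cells, 5.80 and 5.71 with TSA, and 3.02 in MuSC (probe at mm9 chr8:95376840-95376899). The 3 groups did not overlap, and Mmp2 was 13.4-fold lower in MuSC than in Sca1+ vehicle cells (-3.74 ± 0.18, adjusted p = 0.0016). Mmp14, a membrane-anchored collagenase, followed the same order, with 3.96 and 3.77 in vehicle cells, 3.01 and 2.84 with TSA and 0.78 in MuSC. It was 8.48-fold lower in MuSC (-3.08 ± 0.21, adjusted p = 0.0027). Timp2, the third component, had 9.31 and 9.19 in vehicle cells, 8.54 and 8.41 with TSA and 7.76 in MuSC. It was 2.80-fold lower in MuSC (-1.49 ± 0.19, adjusted p = 0.011). Mmp9, gelatinase B, which is known from neutrophils and macrophages, lay between -4.16 and -3.32 on all 5 arrays and was not called (0.04 ± 0.29).

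Not every membrane-anchored MMP was lower in MuSC. Mmp15 had -1.22 and -1.72 in Sca1+ vehicle cells, -0.60 and -0.87 with TSA and 0.24 in MuSC, and was 3.28-fold higher in MuSC (1.71 ± 0.30, adjusted p = 0.023). Mmp17, which is anchored through a lipid, had -0.15 and -0.46 in vehicle cells, 0.75 and 0.43 with TSA and 1.50 in MuSC, a 3.50-fold higher level in MuSC (1.81 ± 0.26, adjusted p = 0.014). In both genes the TSA arrays lay between the vehicle arrays and the MuSC array. Mmp24 had -1.95 and -2.86 in vehicle cells and -2.82 in MuSC, inside the vehicle range. Of the 6 genes classed here as membrane-type MMPs (Mmp14, Mmp15, Mmp16, Mmp17, Mmp24 and Mmp25), 1 was called lower, 2 higher and 1 not called. Mmp16 and Mmp25 were not tested.

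Of the MMPs outside these classes, 3 of 6 were tested and called lower in MuSC. Of these, Mmp19 and Mmp27 passed the filter through Sca1+ cells alone, which favours a lower level in MuSC. Mmp19, a broad matrix protease, had 1.00 and 1.11 in vehicle cells, 0.53 and 0.55 with TSA and -4.64 in MuSC, where its probe was not well above background. By the probe's own signal the level in MuSC was 51.8-fold lower (-5.69 ± 0.18, adjusted p = 0.0014), and a signal this dim makes the fold approximate. Mmp23, which has a cysteine-rich and an immunoglobulin-like domain in place of the usual haemopexin domain, had 3.75 and 3.67 in vehicle cells, 3.18 and 3.06 with TSA and -0.55 in MuSC. It was 19.1-fold lower there (-4.26 ± 0.19, adjusted p = 0.0015). Mmp27 had -2.07 and -2.34 in vehicle cells and was not well above background in MuSC. It was at least 5.63-fold lower there, and its plain difference was -3.77 ± 0.23 (adjusted p = 0.0021).

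Mmp13, the main interstitial collagenase of mice and the single collagenase of 4 that was tested, had -1.10 and -0.74 in vehicle cells, -0.20 and -0.04 with TSA and -2.41 in MuSC. It was 2.79-fold lower in MuSC (-1.48 ± 0.24, adjusted p = 0.020). Its neighbour Mmp12, macrophage elastase, went the other way, with -2.35 and -2.38 in vehicle cells, -2.05 and -1.96 with TSA and -1.42 in MuSC (0.95 ± 0.18, 1.93-fold higher, adjusted p = 0.030). A second Mmp12 probe was above background on no array. The 10 markers of macrophages had log2 summed levels of 7.40 and 7.90 in vehicle cells, 6.97 and 7.01 with TSA and 6.40 in MuSC. Their median log2 difference from Sca1+ vehicle cells went the other way, at 0.61 in MuSC and 0.48 with TSA. In MuSC 2 of the 10 markers were called higher and 1 lower, and all 10 were above background in every group. Their part in the Mmp12 difference was not tested. Mmp7, matrilysin, had -3.61 and -4.55 in vehicle cells and -4.43 in MuSC, and was not called.

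Among the ADAMTS enzymes that remove the amino-terminal propeptide of fibrillar procollagens, Adamts2 had 7.24 and 6.93 in Sca1+ vehicle cells, 6.52 and 6.60 with TSA and 3.31 in MuSC. It was 13.7-fold lower in MuSC (-3.78 ± 0.22, adjusted p = 0.0020), and its second probe differed from this by 0.48. Adamts3 had -4.06 and -3.87 in vehicle cells and was not well above background in MuSC. It was at least 1.67-fold lower there, and its plain difference was -1.31 ± 0.25 (adjusted p = 0.030). Adamts14 had 2.84 and 3.14 in vehicle cells and 3.52 in MuSC and was not called (0.53 ± 0.23, adjusted p = 0.18). So Adamts2 was lower in MuSC on signals above background in both groups. Adamts3 was called lower but was tested through Sca1+ cells alone, and Adamts14 was not called in either direction.

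The 7 ADAMTS enzymes of the proteoglycan-cleaving group, which cut aggrecan and versican, showed no call toward a lower level in MuSC. Adamts8 had 0.15 and 0.03 in vehicle cells, 0.71 and 1.03 with TSA and 1.10 in MuSC (1.01 ± 0.23, 2.01-fold higher, adjusted p = 0.045), but its second probe pointed the other way, at -0.67. Adamts20 was above background only on the MuSC array, at -4.56, too close to background for a fold. It was tested only because of that array, so its call as higher (adjusted p = 0.021) supports nothing. Adamts5, a main aggrecanase, had 2.19 and 1.71 in vehicle cells, 0.69 and 0.04 with TSA and 0.49 in MuSC. It missed the threshold for MuSC (-1.46 ± 0.38, adjusted p = 0.065; called lower with the slide as a block). Adamts1, Adamts4, Adamts9 and Adamts15 were not called, with differences of 0.87, 0.08, 0.27 and 0.24. Adamts1 had 3.47 and 3.13 in vehicle cells and 4.17 in MuSC, above all 4 Sca1+ arrays.

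Of the other ADAMTS genes, Adamts17, an enzyme tied to eye and connective tissue disorders in people, had 0.86 and 1.00 in vehicle cells, 0.37 and 0.46 with TSA and -3.52 in MuSC. It was 21.9-fold lower in MuSC (-4.45 ± 0.19, adjusted p = 0.0015), while a dimmer second probe gave -1.34. Adamts12, which cleaves cartilage oligomeric matrix protein as does Adamts7, had -0.37 and -0.43 in vehicle cells, -1.24 and -1.84 with TSA and -3.03 in MuSC. It was 6.18-fold lower (-2.63 ± 0.31, adjusted p = 0.0090), and at least 3.28-fold lower on a second probe that was not well above background in MuSC. Adamts7 had 0.08 and 0.05 in vehicle cells and -0.64 in MuSC and was not called (-0.70 ± 0.19, adjusted p = 0.070). Adamts16 and Adamts19 were not well above background in MuSC and were tested through Sca1+ cells alone. By its own signal Adamts16 was 4.12-fold lower in MuSC (-2.04 ± 0.19, adjusted p = 0.0053). Adamts19 differed by -3.04 ± 0.24 (adjusted p = 0.0039), and was at least 1.86-fold lower in MuSC. Adamts6, also not above background there, was not called (adjusted p = 0.079), nor were Adamts10 and Adamts18, with differences of -0.38 and -0.21.

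The 4 inhibitors did not share a direction. Timp1, the inducible inhibitor, had 5.85 and 5.93 in vehicle cells, 6.69 and 6.81 with TSA and 3.91 in MuSC, and was 3.93-fold lower in MuSC (-1.97 ± 0.19, adjusted p = 0.0056). Timp3, which binds to the matrix and also inhibits ADAMTS enzymes, had 4.94 and 4.90 in vehicle cells, 5.19 and 5.20 with TSA and 5.41 in MuSC (0.49 ± 0.18, adjusted p = 0.13). Timp4 had 1.37 and 1.65 in vehicle cells, 2.54 and 2.53 with TSA and 1.75 in MuSC (0.24 ± 0.21, adjusted p = 0.47). Thus Timp1 and Timp2 were lower in MuSC, and Timp3 and Timp4 were not called.

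**Figure D2:**
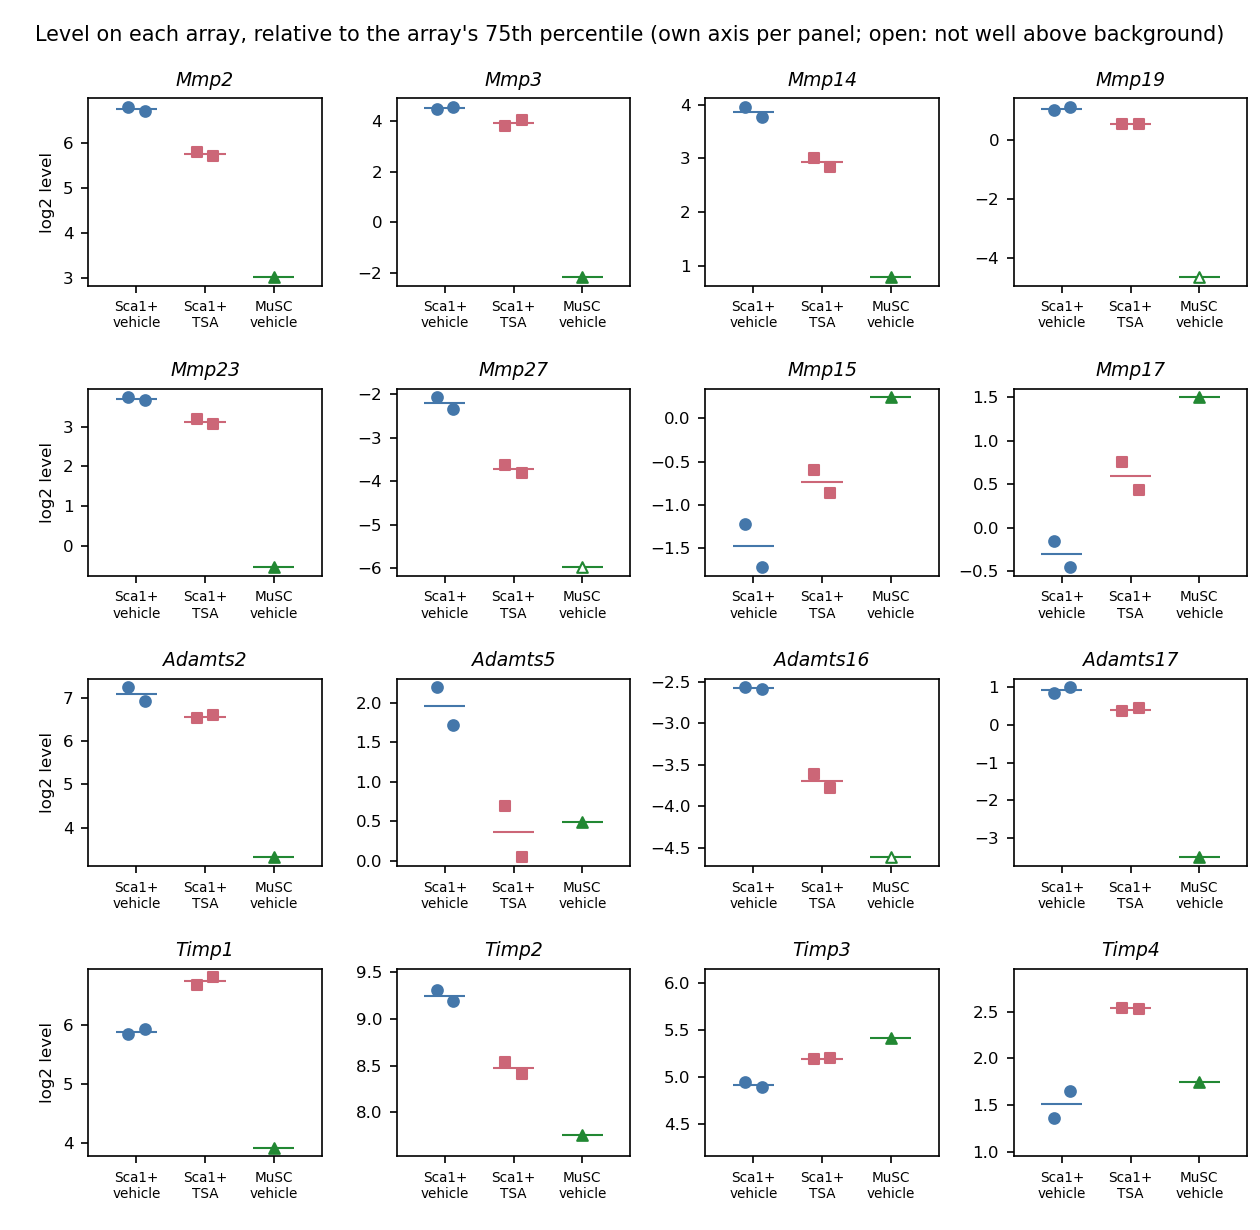
Level on each array (log2, relative to the array's 75th percentile) of 16 members, with 1 point per array, a line at the group mean, an axis for each panel, and open symbols where a group was not well above background. Mmp2, Mmp14 and Timp2 lie at decreasing levels from Sca1+ vehicle to Sca1+ TSA to MuSC, Mmp15 and Mmp17 at increasing levels in the same order, and Timp1 is highest with TSA and lowest in MuSC.

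Of the 20 calls between MuSC and Sca1+ cells, 11 held under every alternative processing that could test them, all of them lower in MuSC: Mmp2, Mmp3, Mmp14, Mmp19, Mmp23, Mmp27, Adamts2, Adamts12, Adamts17, Timp1 and Timp2. Every alternative used the same 1 MuSC array, so they cannot show whether its values would recur in another sample. Mmp19 and Mmp27 were tested through Sca1+ cells alone, and not where all 5 arrays had to be above background. With a normexp background correction of the median signal, the difference shrank to -5.48 for Mmp3, -2.95 for Mmp19, -0.91 for Mmp27, -2.58 for Adamts17 and -1.48 for Adamts12, and the calls of Adamts3, Adamts16, Adamts19, Adamts20 and Mmp12 were lost. Markers of cell types differed between the populations as well, where 11.7% of all genes were lower and 10.5% higher in MuSC. All 10 markers of fibroadipogenic progenitors, the matrix-forming interstitial cells of muscle, were lower in MuSC, with log2 summed levels of 11.1 and 11.5 in Sca1+ vehicle cells, 10.2 and 10.3 with TSA, and 7.34 in MuSC, where all 10 were still above background. Ly6a, which encodes Sca1, is among these 10, and the sort by Sca1 favours its lower level in MuSC. All 9 satellite cell markers were higher in MuSC, with summed levels of 3.71 and 3.66, 5.29 and 5.35, and 7.93. The 9 markers of smooth muscle and pericytes were also all higher in MuSC, at 5.55 and 5.71, 9.21 and 9.09, and 10.6, as were all 7 Schwann cell markers, at 2.43 and 2.26, 5.13 and 5.17, and 6.80. Of endothelial markers, 7 of 10 were lower and 1 higher in MuSC, and of tendon markers 3 of 5 were lower and 1 higher. The part of these other cell types in the MMP, ADAMTS and TIMP differences was not tested.

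Sca1+ cells of TSA-treated and vehicle-treated mice were compared next, which asks what the inhibitor did to these genes in the interstitial population. Of the 36 members tested, 0 were higher and 2 were lower with TSA at an adjusted p under 0.05, Mmp27 and Adamts16. That is 5.56% of members, against 2.98% of all 26090 genes (2.71% higher and 0.268% lower). At an unadjusted p under 0.05 the members numbered 21, of which 7 were higher and 14 lower, 58.3% of those tested against 23.2% of all genes. The median difference was -0.23 for members and -0.13 for all genes. The groups did not overlap for 27 members, 10 with both TSA arrays above and 17 with both below, against 22.9% and 36.4% of all genes (59.3% together). Both comparisons share the vehicle arrays, so their values are given side by side and are not independent.

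**Figure D3:**
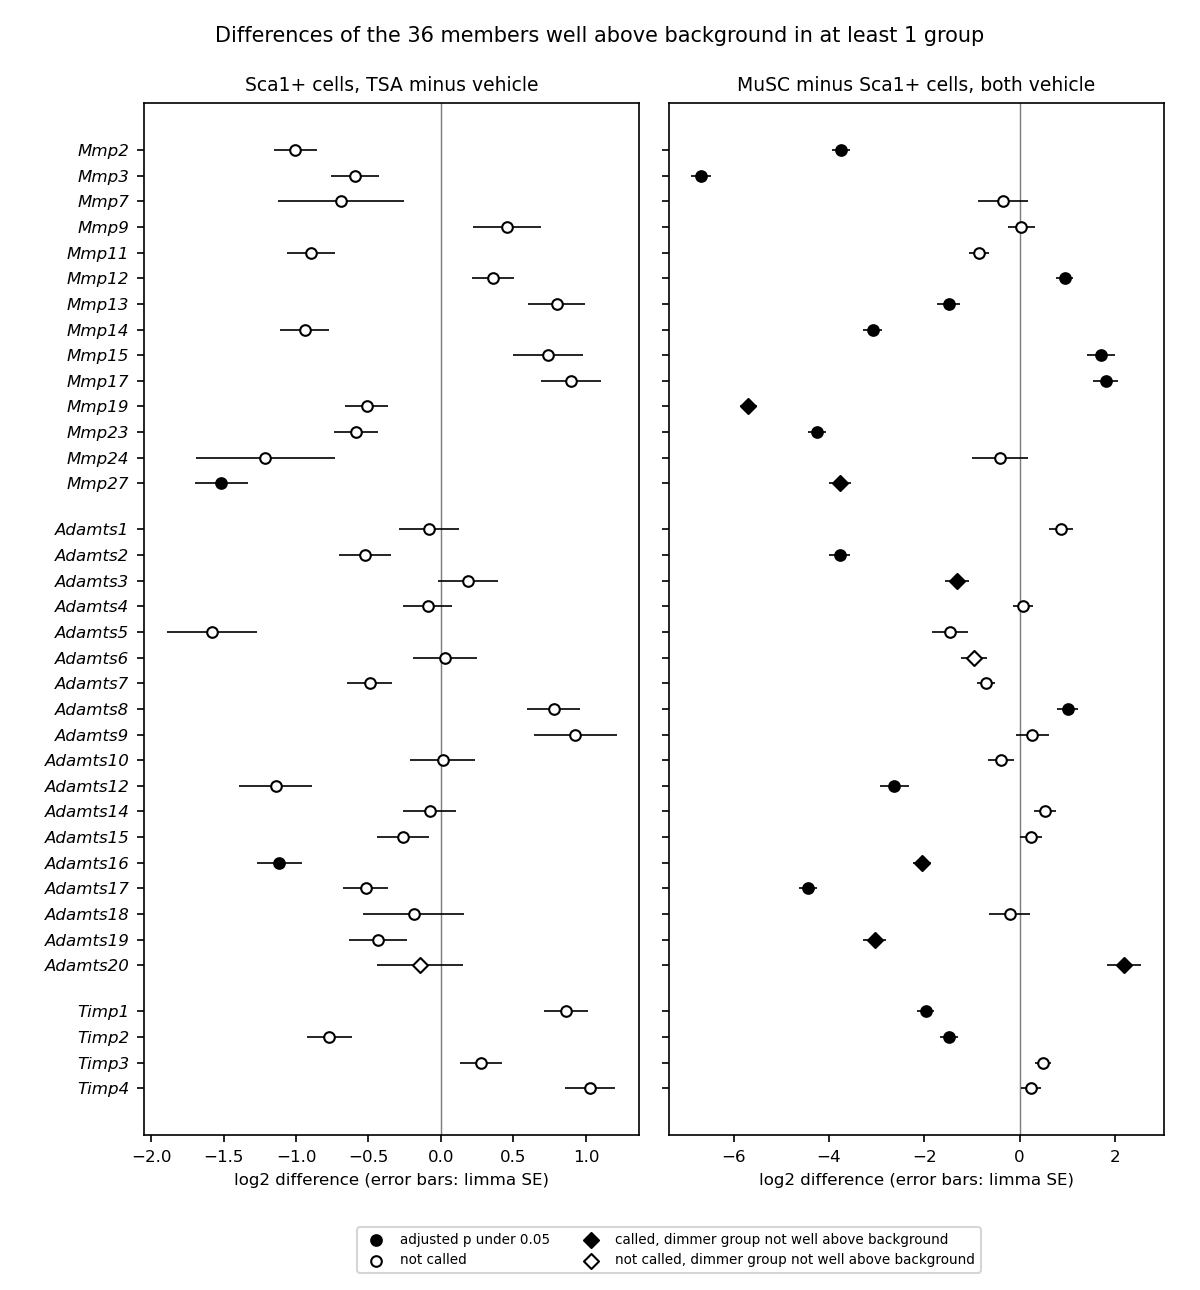
Log2 difference with its limma standard error for the 36 members tested, TSA minus vehicle in Sca1+ cells on the left and MuSC minus Sca1+ cells on the right, each with its own axis; filled symbols passed an adjusted p of 0.05, and diamonds mark a dimmer group that was not well above background. On the left 2 symbols are filled, Mmp27 at -1.51 and Adamts16 at -1.12; on the right 20 are, 15 to the left of 0 and 5 to the right, among them Mmp3 at -6.69 and Mmp17 at 1.81.

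Mmp27, a little-studied MMP of the chromosome 9 cluster (probe at mm9 chr9:7581328-7581387), had levels of -2.07 and -2.34 with vehicle and -3.62 and -3.82 with TSA. Both TSA arrays lay below both vehicle arrays by more than the gap within either pair. The difference was -1.51 ± 0.18 (log2, SE; n = 2 and 2), a level 2.86-fold lower with TSA (limma adjusted p = 0.037), and it was -1.55 on slide 1 and -1.48 on slide 2. Adamts16, a secreted protease (probe at mm9 chr13:70867148-70867207), had -2.57 and -2.58 with vehicle and -3.61 and -3.77 with TSA. It was 2.17-fold lower (-1.12 ± 0.15, adjusted p = 0.049), with -1.04 on slide 1 and -1.19 on slide 2. Each of these genes had a second probe that was above background on no array. Leaving out any 1 of the 4 Sca1+ arrays ended both calls, with adjusted p of 0.12 to 0.24 for Mmp27 and 0.13 to 0.30 for Adamts16, while the differences stayed between -1.65 and -1.38 and between -1.20 and -1.03. Without either TSA array no gene of the whole table passed the threshold.

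The largest difference of the 36 members tested was that of Adamts5, which was not called. It had 2.19 and 1.71 for vehicle and 0.69 and 0.04 for TSA (-1.58 ± 0.31, adjusted p = 0.094). Its groups did not overlap, and the difference was -1.50 on slide 1 and -1.67 on slide 2. With the slide as a block it was called lower (adjusted p = 0.022). Mmp24 had -1.95 and -2.86 with vehicle and -3.12 and -4.11 with TSA, so slide 2 was the lower array in each group (-1.21 ± 0.48, adjusted p = 0.23). Within slides it differed by -1.18 and -1.25, and it too was called lower with the slide as a block (adjusted p = 0.040). Adamts12, at -1.14 ± 0.25 (adjusted p = 0.11), had a second probe at -1.18.

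The gelatinase A system was below the vehicle arrays on both TSA arrays without passing the threshold. Mmp2 differed by -1.01 ± 0.15 (2.01-fold, adjusted p = 0.058), with -1.01 and -1.003 on the 2 slides. It was called lower when only probes above background on all 5 arrays were tested (adjusted p = 0.045). Mmp14 differed by -0.94 ± 0.17 (adjusted p = 0.081) and Timp2 by -0.77 ± 0.16 (adjusted p = 0.098), which became -0.36 under quantile normalization. Mmp11 differed by -0.90 ± 0.17 (adjusted p = 0.086), Mmp3 by -0.59 ± 0.17 (adjusted p = 0.16), Mmp23 by -0.59 ± 0.15 (adjusted p = 0.14) and Mmp19 by -0.51 ± 0.15 (adjusted p = 0.16).

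On the other side, 10 members lay higher on both TSA arrays than on both vehicle arrays, and none of them passed the threshold. Timp4 had the largest of these differences (1.03 ± 0.17, 2.04-fold, adjusted p = 0.072), with 1.18 on slide 1 and 0.88 on slide 2. Timp1 differed by 0.86 ± 0.15 (1.82-fold, adjusted p = 0.079), and it was called higher under quantile normalization (1.06, adjusted p = 0.045) and on the authors' processed values (1.04, adjusted p = 0.046). Timp3 differed by 0.27 ± 0.14. Of the proteases, Adamts9 differed by 0.93 ± 0.29, Mmp17 by 0.90 ± 0.21, Mmp13 by 0.80 ± 0.20, Adamts8 by 0.78 ± 0.19 (second probe -0.33), Mmp15 by 0.74 ± 0.24, Mmp9 by 0.45 ± 0.23 and Mmp12 by 0.36 ± 0.15, with adjusted p between 0.12 and 0.32. The differences of Mmp9 and Mmp12 changed sign under normexp correction. The remaining members, Adamts1, Adamts2, Adamts3, Adamts4, Adamts6, Adamts7, Adamts10, Adamts14, Adamts15, Adamts17, Adamts18, Adamts19, Adamts20 and Mmp7, differed by -0.69 to 0.19 and were not called.

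The number of members called was larger with normexp correction, which here was run on the median signal in place of the processed signal, so the correction and the starting signal changed together. With it, 5 were higher (Adamts8, Adamts9, Mmp17, Timp1 and Timp4) and 13 lower, among them Mmp2, Mmp14, Mmp11, Adamts5 and Timp2, while the median of all genes moved from -0.13 to -0.25 and 5868 genes of the whole table were called lower, against 70. Under that correction Timp1 differed by 1.03 and Mmp2 by -0.85. Direction was the same under all 4 scalings for 28 of the 36 members, the others being Adamts3, Adamts4, Adamts6, Adamts10, Adamts14, Adamts20, Mmp9 and Mmp12.

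Markers of other cell types moved with TSA as well, where 2.71% of all genes were higher and 0.268% lower. Of the satellite cell markers 6 of 9 were higher with TSA, of the smooth muscle and pericyte markers 7 of 9, of the Schwann cell markers 6 of 7, of the mast cell markers 6 of 8 and of the red cell markers all 3 tested, while 2 of 10 fibroadipogenic progenitor markers were lower. The summed mast cell level was 0.93 and 1.17 with vehicle and 5.05 and 4.93 with TSA, with Ms4a2 above background on no array, and the red cell level was 5.29 and 5.35 against 9.23 and 9.29. The neutrophil markers, with Cxcr2 above background on no array, had 7.18 and 7.12 with vehicle and 6.86 and 6.69 with TSA, and 0 of the 8 tested were called. The endothelial markers had 6.49 and 6.95 against 7.11 and 7.13, with 1 of 10 called higher, and the tendon markers 9.03 and 9.30 against 8.75 and 8.64, with 0 of 5 called. The part of these cell types in the differences of the proteases and inhibitors was not tested.

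**Figure D4:**
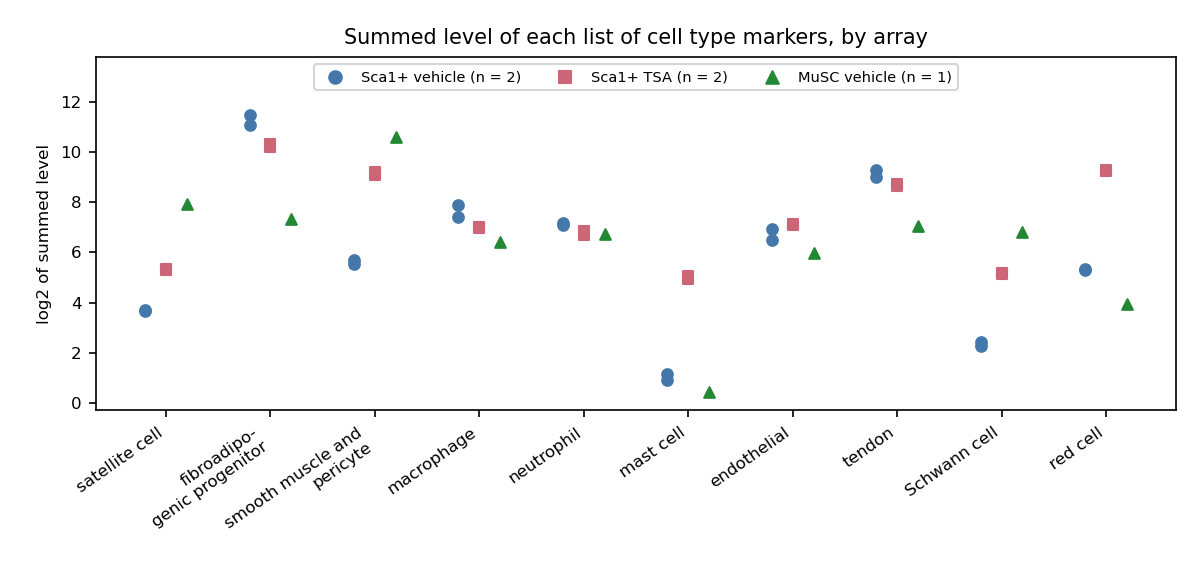
Log2 of the summed level of each list of cell type markers on each array, for Sca1+ vehicle, Sca1+ TSA and MuSC vehicle. The satellite cell, smooth muscle and pericyte, and Schwann cell sums lie in the order vehicle, TSA, MuSC from low to high, the fibroadipogenic progenitor sum in the same order from high to low, and the mast cell and red cell sums are highest with TSA.

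Genes that activate, inhibit or resemble these proteases were read from lists. Over all genes tested, 11.7% were lower and 10.5% higher in MuSC, and 0.268% were lower and 2.71% higher with TSA. Of the plasminogen system and the proprotein convertases, which activate MMP and ADAMTS precursors, 8 of 10 genes were tested, and 7 were lower in MuSC and 0 higher. Pcsk6, a convertase, had 4.996 and 4.95 in vehicle cells, 3.77 and 3.78 with TSA and -0.26 in MuSC, and was lower in MuSC (-5.24) and with TSA (-1.20, adjusted p = 0.036). Pcsk5 was lower in MuSC by -2.60 on the log2 scale.

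Of the ADAM proteases, the membrane-bound relatives of ADAMTS enzymes, 8 of 9 were tested. In MuSC 6 were lower, led by Adam33 (-2.29) and Adam19 (-1.88), and Adam8 was higher (2.24), while 0 were called with TSA. All 7 ADAMTS-like proteins, which lack the protease domain, were tested, and 4 were lower in MuSC, led by Adamtsl2 (-3.79) and Adamtsl3 (-1.69). Thsd4 was above background on no vehicle array of Sca1+ cells, and had -1.77 and -2.28 with TSA and 0.55 in MuSC. It was tested only through the TSA and MuSC arrays, which favours a higher level there. It was called higher with TSA (adjusted p = 0.0054), by at least 5.64-fold, and in MuSC, by at least 33.7-fold.

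Of the procollagen C-proteinases and their enhancers, which cut the other end of procollagen, 4 of 5 were tested and 3 were lower in MuSC. Pcolce2 and Pcolce, the enhancers, differed by -4.58 and -3.26. Of the other inhibitors and cofactors 3 of 5 tested were lower in MuSC, with the largest differences in Tfpi2 (-3.60) and the clearance receptor Lrp1 (-2.88). Of the 10 cathepsins and serine proteases of the matrix 7 were lower in MuSC, led by Dpp4 (-4.71), which is also in the fibroadipogenic progenitor list, and Ctsk (-4.42), and Htra3 was lower with TSA (-1.43, adjusted p = 0.037). Of 5 ADAMTS substrates, Vcan, versican, was lower in MuSC (-3.54) and Vwf, von Willebrand factor, was higher in MuSC (0.82) and with TSA (2.96). Vwf is also in the endothelial list, where it is the 1 marker called higher in each comparison. Adamts13, the protease of von Willebrand factor, was not tested, being above background on 1 TSA array only.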

How the data were processed

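Spot intensity values were extracted by the authors with Agilent Feature Extraction 10.7.3.1, per the file headers, as a processed signal with the background subtracted. The deposited value table is in log2; its columns follow the processed signal in rank (Spearman at least 0.999986) and have medians of 4.67 to 4.68, and how the authors scaled it is not given in the sources used here. Here, log2 processed signals were centred on the 75th percentile of the non-control spots of their array (a signal of 165 to 452); outlier spots (0.196% to 0.334%) were left out and spots of a probe averaged. A gene's probe was the one with the highest mean. Probes were named by accession in RefSeq (26413 of 55681), by another probe of the same design name (574), or as in the design; members keep their design names. A probe counted as well above background where over 50% of its spots were, and 26090 genes were kept. Probe positions are in mm9, and no genome was used. limma 3.58.1 (R 4.3.3, lmFit, eBayes, two-sided, Benjamini-Hochberg 0.05) was fitted over 5 arrays in 3 groups, with 2 residual and 2.30 prior degrees of freedom. Errors printed with differences are standard errors of the fit. Where a group was not well above background, the fold is a bound against the higher of the probe's signal and the lowest signal well above background. For Mmp19 and Adamts16 in MuSC the probe's own signal was the higher, so their folds are the plain ones. An adjusted p is always that of the plain difference. The script was tested on simulated data.

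The members and lists were chosen with earlier results of these data known. Members called in either comparison, or differing by at least 1 log2 unit, are named with values, as are the 2 largest calls of a list in each direction; some list genes are not reported here. The slide is the replicate number of the labels' file names; replicate deviations of both Sca1+ groups correlated at 0.35. Replicate arrays correlated at 0.987 (vehicle) and 0.989 (TSA). The number of arrays limits the precision. Alternatives were quantile normalization, normexp correction (offset 50, on median signals, since a mean signal was not present in every file, a choice made after seeing the data), the authors' values, other filters, the mean of a gene's probes, the slide as a block, 2 groups alone and each Sca1+ array left out.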

Additional observations from a re-analysis of the deposited data

How the results depend on the processing

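For TSA against vehicle, the members called higher numbered 0 as reported, 1 under quantile normalization, 1 on the authors' processed values and 5 with normexp correction. Members called lower numbered 2 as reported, 13 with normexp correction, 1 on the authors' values, 0 without a filter on dim probes, 1 (Mmp2) with probes above background on all 5 arrays, 0 with the mean of a gene's probes and 0 to 0 without any 1 of the Sca1+ arrays. With the slide as a replicate block, 4 were called lower (Adamts5, Adamts16, Mmp24 and Mmp27) and 0 higher. Calls over all genes changed as well. Genes called lower numbered 70 as reported, 5868 with normexp correction, 63 on the authors' values and 3 without a filter. They numbered 91 with probes above background on all 5 arrays, 70 with the mean of probes and 166 with the slide as a block. Genes called higher numbered 708 as reported, 848 under quantile normalization, 878 on the authors' values and 1252 with normexp correction. For MuSC against Sca1+ cells, the 5 higher calls became 1 without a filter, 3 with the mean of probes, 2 with only those groups in the fit, and 0 to 2 with an array left out (0 without vehicle replicate 2, 2 without each other Sca1+ array); the 15 lower calls ranged from 12 to 17. Over all genes, the calls higher in MuSC also fell in these settings, except with the mean of probes, where their number was unchanged. The cause of these changes was not tested.

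Some members changed sign, and all but 1 were uncalled both ways. For TSA these were Adamts20 (0.39 under quantile normalization, 0.34 on the authors' values), Mmp12 (-0.41 with the mean of probes) and, with normexp correction, Adamts10 (-0.042), Adamts14 (0.085), Adamts3 (-0.59, called, adjusted p = 0.044), Adamts4 (0.017), Adamts6 (-0.53), Mmp12 (-0.13) and Mmp9 (-0.39). For MuSC, Mmp9 became -0.17. With an array left out, the TSA differences ranged from -0.25 to 0.090 for Adamts1, -0.0061 to 0.38 for Adamts3, -0.22 to 0.041 for Adamts4, -0.22 to 0.27 for Adamts6, -0.195 to 0.22 for Adamts10, -0.22 to 0.069 for Adamts14, -0.56 to 0.19 for Adamts18 and -0.49 to 0.20 for Adamts20. For MuSC they ranged from -0.055 to 0.21 for Adamts4, -0.093 to 0.63 for Adamts9, -0.49 to 0.076 for Adamts18, -0.82 to 0.125 for Mmp7, -0.14 to 0.21 for Mmp9 and -0.88 to 0.042 for Mmp24. Signal over background limits members not well above it in MuSC (Mmp19, Mmp27, Adamts3, Adamts6, Adamts16 and Adamts19) or in Sca1+ vehicle cells (Adamts20, and Mmp7 on 1 array).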
